A study of Mus musculus with 36 samples.

Results

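The regions restricted to hematopoietic stem cells (HSCs) and the earliest multipotent progenitors (MPP1) were 1841 of the 105005 accessible regions found by ATAC-seq in mouse bone marrow. They were chosen by their peak calls. Overlapping peaks (by 1 bp or more) from the 36 libraries were joined into regions, and a region was a member when it held a peak in 4 or more of the 12 HSC and MPP1 libraries and in none of the 24 libraries of the other fractions. Of the 36960 regions called in 4 or more of the 12 libraries, the other 35119 also held a peak in at least 1 of the 24 and are called shared regions here. The absence of members from the other fractions is therefore a choice and not a finding.

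The study compared C57BL/6 mice of 10 weeks (young) and 20 months (aged) without any transgene or treatment, and each library was made from 20000 sorted cells. HSCs were Lin- Sca-1+ c-kit+ cells that were CD34-, CD150+, CD48- and Flt3-, and MPP1 differed from them in the labels only by being CD34+. HSCs had 4 libraries per age and MPP1 had 2 per age, as had each of the other 6 fractions, which were MPP2 (biased to megakaryocytes and erythrocytes), MPP3 (biased to myeloid cells), MPP4 (primed for lymphoid cells) and the progenitors of granulocytes and macrophages (GMP), of megakaryocytes and erythrocytes (MEP) and of lymphocytes (CLP). Per the study, marrow of each age was pooled and sorted in duplicate, so the p-values measure the spread between libraries, which may be technical. The study describes the ATAC-seq libraries as biological replicates, 2 per fraction and age and 4 for HSCs. Each library was subsampled by the authors to the same number of mapped reads, and the deposited lists of peaks hold no read counts.

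ATAC-seq marks open chromatin, where a transposase can insert sequencing adapters. Open chromatin far from genes often marks enhancers, short stretches of DNA to which transcription factors bind and from which they raise the transcription of genes at a distance. HSCs are mostly quiescent and renew themselves throughout life, and as they become progenitors they close part of their enhancers and open others, so enhancers differ more between blood cell types than promoters do.

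The summit sequences of 13 members are shown because the results below turn on them. Each is the 201 bp around the summit on the plus strand of mm10, read from the RefSeq copy of GRCm38.p6. Capitals mark matches, on either strand, to consensus motifs of transcription factors. Homeobox factors were searched as HOXA9 (TGATTTAT) and as the joint site of PBX and HOX proteins (TGATTGAT). The forkhead family (FOX) was searched as TGTTTAC. The motif of TEAD, partners of the Hippo pathway, was CATTCCA. The motif of NFAT, activated by calcium signaling, was TGGAAAA. The nuclear receptors of the NR4A family were searched as AAAGGTCA. CNC is the site of Nrf2, NF-E2 and the Bach factors and was searched as GCTGANTCA. It contains the AP-1 motif of Fos and Jun proteins in every match, which was TGANTCA. The motif of nuclear factor I (NFI) proteins was CTTGGCA. The motif of STAT proteins, activated by cytokine receptors, was TTCNNNGAA. The motif of GATA factors in blood cells was AGATAAG. The motif of the ETS family, to which PU.1 belongs, was AGGAAGT. The motif of RUNX factors, needed for blood formation, was TGTGGTT. A match is a description of these letters and not evidence of binding. The first 5 sequences belong to members called in all 12 libraries.
Irf2, chr8:46888646-46888846, with a GATA match: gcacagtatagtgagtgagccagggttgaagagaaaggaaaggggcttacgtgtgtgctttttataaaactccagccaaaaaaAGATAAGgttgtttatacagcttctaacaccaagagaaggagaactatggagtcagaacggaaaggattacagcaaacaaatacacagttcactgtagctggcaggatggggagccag
Cntnap5a, chr1:114039481-114039681, with TEAD, RUNX and ETS matches: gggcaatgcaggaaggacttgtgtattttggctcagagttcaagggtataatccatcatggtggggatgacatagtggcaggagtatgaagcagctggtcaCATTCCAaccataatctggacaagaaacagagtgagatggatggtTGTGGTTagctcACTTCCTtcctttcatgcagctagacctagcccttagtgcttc
Eva1a, chr6:82127929-82128129, with TEAD and NFI matches: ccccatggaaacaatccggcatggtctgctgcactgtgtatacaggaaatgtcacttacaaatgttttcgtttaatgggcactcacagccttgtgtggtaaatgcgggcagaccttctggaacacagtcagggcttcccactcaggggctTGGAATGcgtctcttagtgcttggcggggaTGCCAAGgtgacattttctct
Gm15155, chrX:155901781-155901981, with a CNC match: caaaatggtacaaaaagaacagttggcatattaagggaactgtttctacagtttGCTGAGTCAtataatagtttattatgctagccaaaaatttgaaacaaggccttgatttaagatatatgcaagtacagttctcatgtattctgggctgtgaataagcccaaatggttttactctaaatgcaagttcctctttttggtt
Tnrc6a, chr7:123098063-123098263, with a FOX match: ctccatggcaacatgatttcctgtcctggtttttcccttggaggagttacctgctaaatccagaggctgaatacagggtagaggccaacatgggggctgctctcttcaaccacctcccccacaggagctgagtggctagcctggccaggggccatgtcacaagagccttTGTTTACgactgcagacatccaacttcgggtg

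The next 4 sequences lie near genes of HSC identity. The Hlf member lies in an intron of Hlf and holds 2 NFI matches, the Rora member lies in an intron of Rora, and the Gata3 and Itga6 members are intergenic.
Hlf, chr11:90382096-90382296, with 2 NFI matches: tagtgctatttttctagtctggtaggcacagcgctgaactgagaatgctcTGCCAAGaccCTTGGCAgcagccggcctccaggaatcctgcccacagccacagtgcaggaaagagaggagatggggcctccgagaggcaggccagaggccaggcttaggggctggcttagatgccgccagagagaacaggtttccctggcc
Gata3, chr2:9362112-9362312, with NFI and AP-1 matches: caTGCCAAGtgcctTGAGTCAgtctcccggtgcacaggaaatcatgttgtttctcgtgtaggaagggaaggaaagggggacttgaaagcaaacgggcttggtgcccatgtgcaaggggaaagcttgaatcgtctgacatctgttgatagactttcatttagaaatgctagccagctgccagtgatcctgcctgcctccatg
Itga6, chr2:71673350-71673550, with FOX and NFI matches: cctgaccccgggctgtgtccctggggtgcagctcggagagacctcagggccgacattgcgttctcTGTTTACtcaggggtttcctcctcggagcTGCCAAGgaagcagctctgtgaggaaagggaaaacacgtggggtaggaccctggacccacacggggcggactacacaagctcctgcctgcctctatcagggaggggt
Rora, chr9:68941255-68941455, with an NFI match: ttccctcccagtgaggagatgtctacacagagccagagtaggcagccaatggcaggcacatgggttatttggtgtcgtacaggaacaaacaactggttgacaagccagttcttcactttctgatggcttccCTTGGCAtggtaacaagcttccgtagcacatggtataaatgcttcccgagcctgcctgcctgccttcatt

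The last 4 sequences belong to members called mostly in 1 fraction or 1 age. Ids and Klf6 had calls in every one of the 8 HSC libraries and none in MPP1, Slc15a4 in all 6 aged and no young library, and Ranbp9 in all 6 young and no aged library.
Ids, chrX:70184467-70184667, with TEAD, FOX and RUNX matches: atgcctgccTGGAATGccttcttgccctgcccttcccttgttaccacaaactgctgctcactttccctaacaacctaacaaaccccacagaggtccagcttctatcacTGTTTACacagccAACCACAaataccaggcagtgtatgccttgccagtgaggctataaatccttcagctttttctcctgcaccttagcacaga
Klf6, chr13:5724427-5724627, with TEAD and CNC matches: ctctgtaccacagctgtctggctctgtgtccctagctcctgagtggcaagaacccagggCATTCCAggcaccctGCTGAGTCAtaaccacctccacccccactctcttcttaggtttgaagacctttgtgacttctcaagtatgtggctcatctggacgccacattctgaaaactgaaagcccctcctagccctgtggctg
Slc15a4, chr5:127537613-127537813, with 2 AP-1 matches and a GATA match: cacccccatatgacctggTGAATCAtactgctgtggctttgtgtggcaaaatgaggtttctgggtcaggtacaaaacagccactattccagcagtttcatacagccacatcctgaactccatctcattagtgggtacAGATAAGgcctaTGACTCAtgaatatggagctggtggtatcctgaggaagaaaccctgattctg
Ranbp9, chr13:43453346-43453546, with a PBX-HOX match: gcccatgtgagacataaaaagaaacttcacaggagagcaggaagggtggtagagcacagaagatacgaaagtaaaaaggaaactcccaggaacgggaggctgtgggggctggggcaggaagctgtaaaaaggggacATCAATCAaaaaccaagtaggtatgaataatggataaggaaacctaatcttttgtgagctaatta

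Members were sparsely called. A total of 577 (31.3%) were called in exactly 4 of the 12 libraries and 31 (1.68%) in all 12, whereas 16680 shared regions (47.5%) were called in all 12. Just outside the rule, 984 regions were called in 3 of the 12 libraries and in none of the 24, with a median fold enrichment of 6.21 against 6.32 for members called in 4. Fold enrichment is the height of the summit over the local background, as given by the peak caller. A further 1147 regions met the first condition and were called in 1 of the 24 libraries. That call lay in MPP2 for 624 of them (54.4%), in MPP3 for 195 (17%), in MPP4 for 188 (16.4%) and in GMP, CLP or MEP for 92, 44 and 4. The same rule gave 150 regions for MPP2, MPP3 and MPP4 as a group, and 12668 for GMP, MEP and CLP. The 24 libraries held between 9581 (MEP) and 63288 (GMP) peaks and the 12 held 27856 to 40157, so the absence of a call did not mean the same in each fraction.

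Before the comparisons, 2 libraries have to be named. Young HSC replicates 3 and 4 held 29% and 29.7% of the members, and replicates 1 and 2 held 57.5% and 67.1%. They also had the fewest peaks of the 12, 27856 and 29022, and held 71.1% and 74.7% of the shared regions against 85.1% and 89.7% in replicates 1 and 2. The 4 aged HSC libraries held 60.4%, 63.7%, 67.1% and 63.7% of the members. Replicate 2 of young HSCs thus matched the highest aged library, and the other 3 lay below the lowest. In MPP1, the young libraries held 27.3% and 38.4% of the members and the aged libraries held 51.9% and 44.8%, without overlap.

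**Figure D1:**
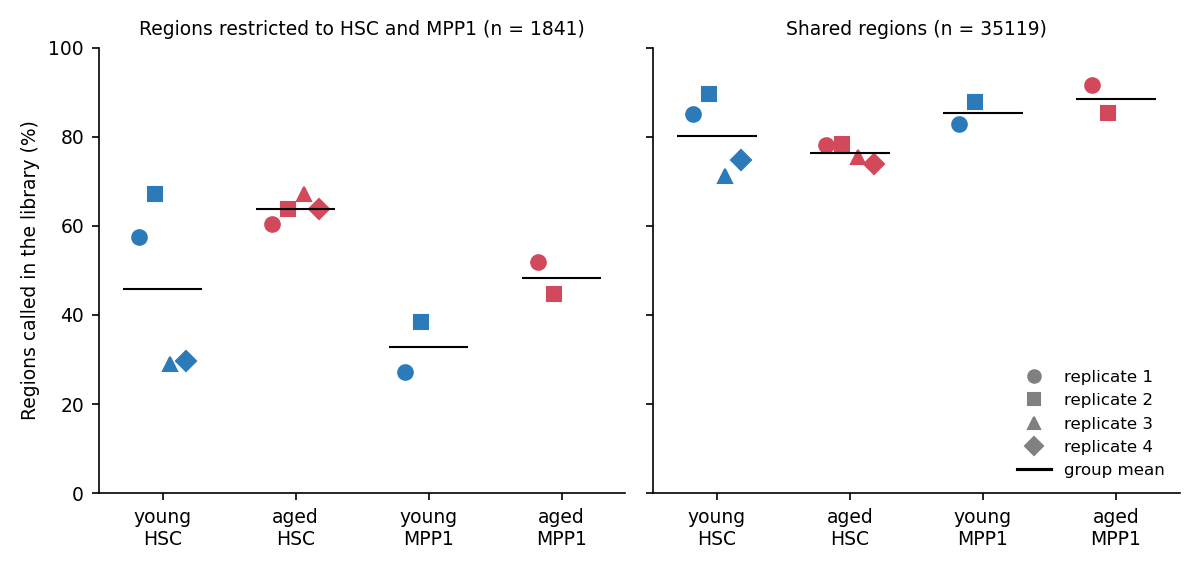
Share of regions (%) called in each HSC and MPP1 library, for the 1841 members (left) and the 35119 shared regions (right). Points are libraries, with the symbol giving the replicate number, blue for young and red for aged, and bars are group means. Young HSC replicates 3 and 4 lie at 29% and 29.7% of members, below the other HSC libraries.

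Averaged over libraries, 63.7% ± 2.73 (SD, n = 4) of the members were called in aged HSCs and 45.8% ± 19.4 (SD, n = 4) in young HSCs, a difference of 17.9 percentage points. The difference was 36.1 points between replicates 3 and 4 of each age and -0.272 points between replicates 1 and 2, where shared regions moved by 1.76 and -9.15 points in turn. In MPP1 it was 15.5 points, with 48.3% ± 4.99 (SD, n = 2) in aged and 32.9% ± 7.84 (SD, n = 2) in young cells. Over all replicates, shared regions moved by -3.7 points in HSCs and by 3 points in MPP1. More of the members were thus called in aged cells in MPP1 and in HSC replicates 3 and 4, but not in HSC replicates 1 and 2.

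The members had lower fold enrichment than the shared regions in each of the 12 libraries. The median over the members called in a library ranged from 6.15 to 7.30, against 8.38 to 9.66 for the shared regions. Within a library, the median member stood between the 22.2 and 36.2 percentile of all called regions. The rule does not use fold enrichment itself, but it asks for the absence of calls, and calls and fold enrichment come from the same peaks.

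Next, HSCs and MPP1 were compared within the members. Of the 1841 members, 1518 (82.5%) were called in both fractions, 323 (17.5%) in HSCs alone and 0 in MPP1 alone, beside 98.9%, 0.82% and 0.313% of shared regions. This split is partly set by the rule, since 4 calls can be reached with any of the 8 HSC libraries but need all 4 MPP1 libraries. A region called in HSCs alone passed the rule through the libraries in which it is high, and the absence from MPP2, MPP3 and MPP4 was also asked for, so the counts of this comparison are a description. Mean shares called were higher in HSCs than in MPP1 by 12.9 points in young and by 15.4 points in aged mice. When HSC replicates 1 and 2 alone were set against MPP1, the differences were 29.4 and 13.7 points. Shared regions gave -5.3 points in young and -12 points in aged mice with all replicates, and 1.96 and -10.2 points with HSC replicates 1 and 2. They were thus called more often in MPP1 except in young mice with HSC replicates 1 and 2.

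**Figure D2:**
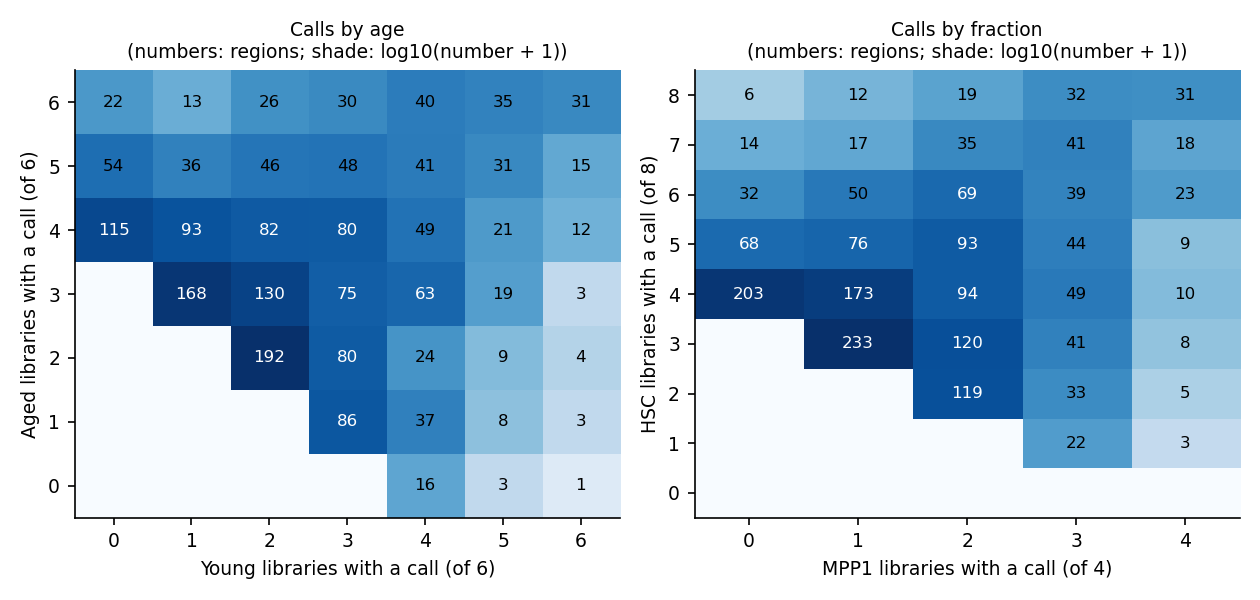
Number of members by how many aged (of 6) and young (of 6) libraries called them (left), and by how many HSC (of 8) and MPP1 (of 4) libraries did (right). Numbers give members and the shade is log10 of the number plus 1. Aged libraries alone called 191 members (10.4%) and young libraries alone called 20 (1.09%), beside 0.567% and 0.436% of shared regions (not shown). Such members passed the rule through that age alone, so these counts are a description.

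In an exact conditional test of each region with age as stratum, 50 members (2.72%) were called more often in HSCs than in MPP1 at an unadjusted p under 0.05, beside a background of 0.219% over the 36960 regions tested. Among regions whose number of calls allowed such a p, these were 13% of 384 members, beside 1.73% of all such regions. Called less often in HSCs were 5 members (0.272%), beside 1.34% of all regions, and 1.09% of the 457 members whose calls allowed it, beside 13.8%. After Benjamini-Hochberg adjustment over all regions no region passed, since the smallest p that this design can give is 0.00444 (adjusted p = 1, exact test, two-sided).

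All 8 HSC and no MPP1 library called 6 members (0.326%, beside 0.00569% of shared regions), which tied at the smallest p (p = 0.00444, exact test). They passed the rule through HSCs alone, so this p is a description. The 5 named here had the highest percentile of fold enrichment among them, so their levels are set by the choice. They lay nearest to Ids, a lysosomal sulfatase, to Klf6, a zinc finger transcription factor, to Eif3d, a subunit of a translation initiation factor, to Sh3gl3, an endophilin of endocytosis, and to Glipr2. The Ids member (chrX:70184403-70184944, intergenic, 180411 bp from the transcription start site, TSS) had fold enrichments of 10.8, 13, 8.43 and 5.35 in young HSCs and of 6.99, 7.8, 13.2 and 11.7 in aged HSCs. The Klf6 member (chr13:5724386-5724696, intergenic, 136941 bp from the TSS) had 10.2, 7.99, 8.95 and 6.42 in young and 6.99, 8.45, 8.63 and 8.21 in aged HSCs. Neither member separated the ages, since the young and aged values overlapped in both. A second member near Klf6 (chr13:5665491-5665747) was called in 7 HSC libraries and in no MPP1 library.

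The 5 members called less often in HSCs lay nearest to Kcna6, 1190002N15Rik, Nkx2-3 (p = 0.0133 each, exact test), Mettl15 and Arhgap35 (p = 0.0444 each, exact test). The Kcna6 member lies in an exon of this potassium channel gene, 234 bp from the TSS (chr6:126739791-126740044). Its fold enrichment was 7.58 and 7.84 in young MPP1, 6.69 and 7.39 in aged MPP1, and 7.33 in young HSC replicate 2, the only HSC library with a call. The Nkx2-3 member (chr19:43599053-43599396, intergenic), near a homeobox gene of the HSC identity list, had 5.35, 4.01, 6.07 and 5.88 in MPP1 and 3.96 in young HSC replicate 2. Both were called in all 4 MPP1 libraries. The single HSC value lay within the MPP1 range for Kcna6 and below all 4 MPP1 values for Nkx2-3.

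The 31 members called in all 12 libraries had a fold enrichment in each and could be compared by level. They entered a limma fit on log2 fold enrichment with 16680 shared regions, 16711 regions in all, with each library centred on its median. The median HSC minus MPP1 difference was 0.207 over these 31 members and 0.0134 over all regions of the fit (log2). At an unadjusted p of 0.05, 11 of the 31 (35.5%) passed in either direction, beside 10.6% of all regions of the fit. Of the 31, 2 were higher in HSCs, beside a background of 0.0479% (8 regions), and 0 were lower, beside 2 regions (limma, adjusted p under 0.05). Members were chosen for having no call in MPP2, MPP3 and MPP4, and the shared regions for having a call elsewhere. This comparison of HSCs with MPP1 by level, with its p-values, is therefore a description too.

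The first was the member nearest to Irf2, a transcription factor that restrains interferon signaling (chr8:46888442-46888996, intergenic, 95220 bp from the TSS). Its fold enrichment was 16.2, 14.1, 12.7 and 14.9 in young HSCs, 14.2, 14.5, 14.6 and 16.4 in aged HSCs, 10.9 and 6.87 in young MPP1, and 9.09 and 9.18 in aged MPP1. All 8 HSC values lay above all 4 MPP1 values. The difference was 0.77 ± 0.13 on the log2 scale (SE, limma adjusted p = 0.0196).

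The second was the member nearest to Eva1a, which encodes a membrane protein linked to autophagy (chr6:82127772-82128241, intergenic, 86383 bp from the TSS). It had 14.7, 13, 9.14 and 9.88 in young HSCs, 13, 12.6, 16.5 and 13.5 in aged HSCs, 6.06 and 5.47 in young MPP1, and 9.79 and 10.1 in aged MPP1. HSC values lay above MPP1 values within each age, and the 2 aged MPP1 values overlapped with young HSC replicates 3 and 4. The difference was 0.79 ± 0.14 (log2, SE, limma adjusted p = 0.0281). Both calls were lost when a single library was left out, for Irf2 without any of 4 libraries, young HSC replicate 1, young MPP1 replicate 2 or either aged MPP1 replicate (adjusted p = 0.0508 to 0.116, limma), and for Eva1a without any of 7. Over all 12 such fits the differences were 0.66 to 0.90 for Irf2 and 0.70 to 0.89 for Eva1a (log2). Both calls were also lost without centring, with the mean fold enrichment of a region, with replicates 1 and 2 only and with the replicate number as a block. In those 4 settings the differences were 0.72 to 0.81 (log2, limma adjusted p = 0.0563 to 0.134).

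**Figure D3:**
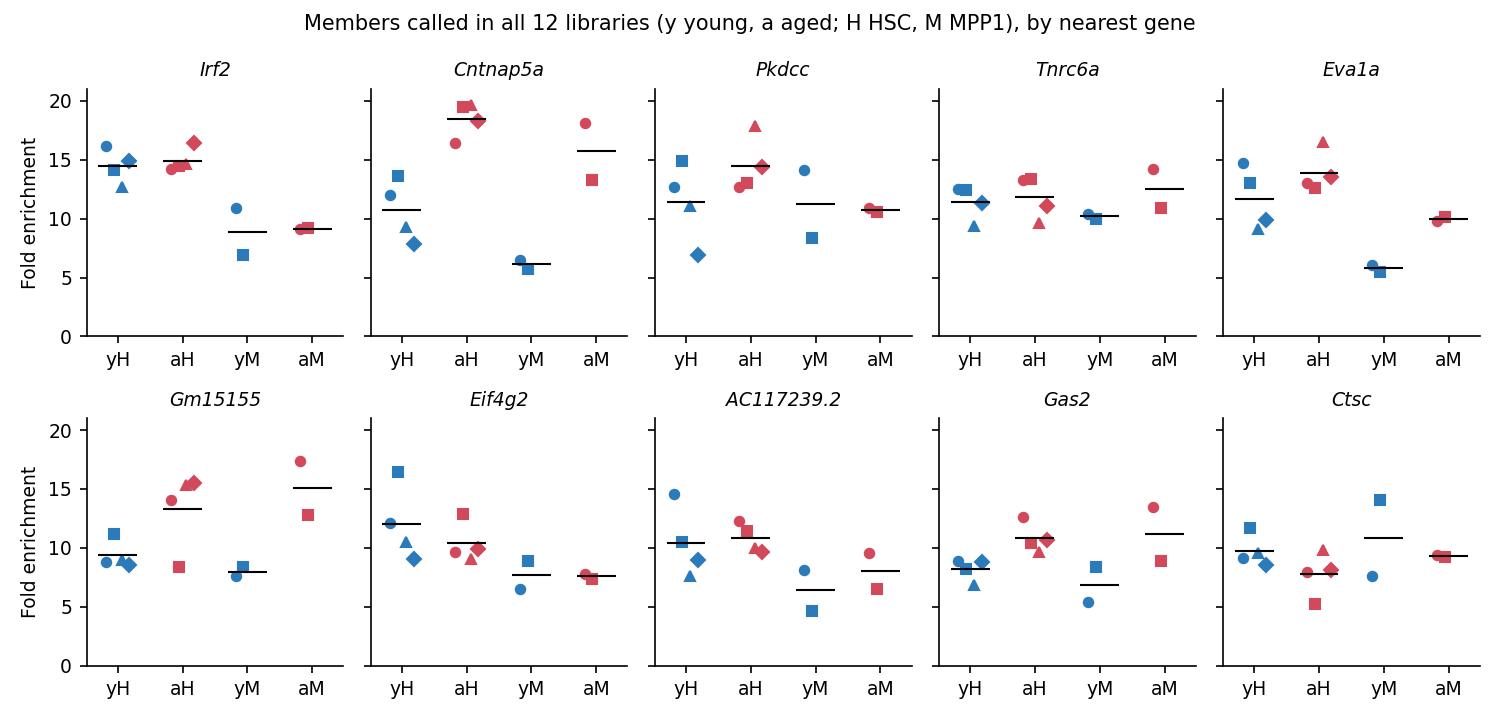
Fold enrichment (y axis, linear) of the 10 members called in all 12 libraries with the highest median percentile, each named by the gene with the nearest TSS. Points are libraries in young HSC (yH), aged HSC (aH), young MPP1 (yM) and aged MPP1 (aM), with the symbol giving the replicate (circle 1, square 2, triangle 3, diamond 4), and bars are means. Cntnap5a is higher in aged than in young cells of both fractions, and Irf2 is higher in HSCs than in MPP1 at both ages.

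The other 8 of these 10 members lay nearest to Cntnap5a, Pkdcc (a secreted kinase), Tnrc6a (a partner of Argonaute in silencing by microRNAs), Gm15155, Eif4g2 (a translation initiation factor), AC117239.2, Gas2 and Ctsc (the protease cathepsin C, the member itself lying in an intron of Grm5). The highest single values among them were 19.6 in aged HSC replicate 3 and 19.5 in aged HSC replicate 2, both for Cntnap5a. Tnrc6a varied little by group, with 12.5, 12.4, 9.4 and 11.3 in young HSCs, 13.3, 13.4, 9.62 and 11.1 in aged HSCs, 10.4 and 9.97 in young MPP1 and 14.2 and 10.9 in aged MPP1. Its HSC minus MPP1 difference was 0.09 (log2, limma adjusted p = 0.865) and its aged minus young difference 0.13 (adjusted p = 0.811). Eif4g2 and AC117239.2 differed between fractions by 0.59 and 0.64 (log2), with limma adjusted p of 0.124 and 0.141.

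The members were then compared between ages. The rule counts calls over both ages without regard to age, but in the same 12 libraries, so a member called at 1 age alone passed it through that age. The counts below are therefore set beside those of the shared regions, which passed the same limit of 4 calls. More aged than young libraries called 1059 members (57.5%), fewer called 404 (21.9%), and 378 were called in equal numbers. Among shared regions the same shares were 18.3% and 24%. Aged libraries alone called 191 members (10.4%) and young libraries alone called 20 (1.09%), beside 0.567% and 0.436% of shared regions. Equal numbers of calls were more frequent in shared regions (57.7%) than in members (20.5%), as many shared regions were called in all 12 libraries.

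In the exact test with fraction as stratum, 137 members (7.44%) were called more often in aged cells at an unadjusted p under 0.05, beside a background of 0.795% over the 36960 regions, and 9 (0.489%) less often, beside 0.392%. Among the 742 members whose calls allowed such a p the shares were 18.5% and 1.21%, beside 5.88% and 2.9% of the 5004 regions that allowed it. These counts come from the calls that also chose the members and are given as a description. No region passed after adjustment over all regions (adjusted p = 1, exact test, two-sided, with a smallest possible p of 0.00476).

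All 6 aged and no young library called 22 members (1.2%), beside 0.157% of all regions, and all 6 young and no aged library called 1 (0.0543%), beside 0.0216%. In HSCs alone, 4 aged and no young libraries called 108 members (5.87%), beside 0.601%, and 4 young and no aged called 7 (0.38%), beside 0.387%. Since young HSC replicates 3 and 4 held few members, the counts were repeated within sets of replicates. More aged than young libraries called 29.3% of the members in HSC replicates 1 and 2, 58.9% in replicates 3 and 4 and 41.7% in MPP1, and fewer called 30.5%, 12.5% and 18.9%. Of the shared regions, more aged than young libraries called 7.3%, 18.5% and 14% in the same sets, and fewer called 21.4%, 16.4% and 9.43%. Calls in both aged and no young library of HSC replicates 1 and 2 were found for 10.4% of members and 1.16% of shared regions, and the opposite for 9.67% and 5.4%. Without young HSC replicates 3 and 4, 62 members (3.37%, beside 0.444% of all regions) were called more often in aged cells and 20 (1.09%, beside 0.774%) less often. These are the same members, chosen with all 12 libraries, so the counts are a description too. In HSC replicates 1 and 2 the members split about evenly between the ages, whereas shared regions were more often called in fewer aged than young libraries. Across the sets, 389 members (21.1%) were called more often in aged cells in both HSC sets, beside 3.22% of shared regions, and 217 of them also in MPP1 (11.8%, beside 1.51%). Called less often in both HSC sets were 105 members (5.7%, beside 6.59%), 42 of them also in MPP1 (2.28%, beside 1.49%).

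The 5 named members called more often in aged cells were each called in all 6 aged and no young library (p = 0.00476, exact test). Having no young call, they passed the rule through the aged libraries alone, so this p is a description. They lay nearest to Gcfc2, Kcna4 (a voltage-gated potassium channel), Gnal (a G protein subunit), Spry2 (an inhibitor of receptor tyrosine kinase signaling) and Slc15a4 (a lysosomal transporter, with the member in an intron of Tmem132c). The Gcfc2 member (chr6:81738145-81738717, intergenic, 185238 bp from the TSS) had fold enrichments of 14.1, 17.3, 11.9 and 13.5 in aged HSCs and of 6.69 and 9.06 in aged MPP1. The Kcna4 member (chr2:107231586-107232186, intergenic, 58753 bp) had 11.5, 12.4, 18.3 and 12.1 in aged HSCs and 6.69 and 4.22 in aged MPP1. The Slc15a4 member (chr5:127537513-127537933) had 12.8, 13, 11.2 and 10.4 in aged HSCs and 11.2 and 6.86 in aged MPP1. In Gcfc2 and Kcna4 all aged HSC values lay above both aged MPP1 values, and in Slc15a4 1 MPP1 value lay within the HSC range. These 5 were picked from 22 members of the same calls by their percentile of fold enrichment, so their high values are set by the choice. Of the 5 members nearest to Gcfc2, the one above was called in no young library, another in 4 aged HSC, 1 aged MPP1 and no young libraries, and another (chr6:81633587-81634013) in 11 of the 12 libraries. A further member of this pattern lies in an intron of Rora, a nuclear receptor gene (chr9:68941092-68941499, 287509 bp from the nearest TSS). It had 9.97, 8.92, 10.2 and 7.82 in aged HSCs and 5.58 and 10.2 in aged MPP1.

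The 5 named members called less often in aged cells lay nearest to Ranbp9 (p = 0.00476), Cd82 and Pde7a (p = 0.0143 each), and Speer4c and Pcsk5 (p = 0.0238 each, all by the exact test). Ranbp9 and Pde7a had no aged call and passed the rule through young libraries alone, and all of these p-values are a description. The Ranbp9 member lies in an intron of this scaffold gene (chr13:43453085-43453622) and had 5.24, 6.11, 6.85 and 10.7 in young HSCs and 7.04 and 7.84 in young MPP1. The Cd82 member (chr2:93482187-93482597, intergenic, 19446 bp from the TSS of this tetraspanin gene) had 4.19, 9.71, 6.27 and 7.08 in young HSCs, 5.74 and 6.02 in young MPP1, and 4.22 in aged MPP1 replicate 2, the only aged library with a call. The Pde7a member, in an intron of this phosphodiesterase gene 1100 bp from the TSS (chr3:19310084-19310360), had 3.97, 3.57, 4.9 and 3.99 in young HSCs and 3.82 in young MPP1 replicate 1. In the Cd82 and Ranbp9 members the young HSC and young MPP1 values overlapped.

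By level, 1 of the 31 members called in all 12 libraries was higher in aged cells, beside a background of 0.0957% (16 of 16711 regions). None was lower, beside 5 of the 16711 regions (limma, adjusted p under 0.05 for both). At an unadjusted p of 0.05, 10 of the 31 (32.3%) passed in either direction, beside 9.46% of all regions of the fit, and the median aged minus young difference was 0.183 against 0.00167 over all regions of the fit (log2). The called member lies 1645005 bp from the TSS of Cntnap5a, a gene of a neural adhesion family (chr1:114039436-114040066, intergenic). Its fold enrichment was 12, 13.6, 9.3 and 7.88 in young HSCs, 16.4, 19.5, 19.6 and 18.3 in aged HSCs, 6.5 and 5.75 in young MPP1, and 18.1 and 13.3 in aged MPP1. Young and aged values did not overlap in either fraction. The difference was 0.99 ± 0.12 (log2, SE, limma adjusted p = 0.00029), and it stayed between 0.92 and 1.05 when any of the 12 libraries was left out. In HSCs the mean log2 value was 3.38 ± 0.35 in young and 4.20 ± 0.12 in aged libraries (SD, n = 4 each, before centring), and in MPP1 2.61 ± 0.13 and 3.95 ± 0.31 (SD, n = 2 each). All 3 regions near Cntnap5a that were called in 4 or more of the 12 libraries were members.

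The next largest age differences among the 31 did not pass. The member in an intron of Gm15155 (chrX:155901726-155902227) had 8.83, 11.2, 8.95 and 8.52 in young HSCs, 14.1, 8.34, 15.3 and 15.5 in aged HSCs, 7.58 and 8.36 in young MPP1 and 17.4 and 12.8 in aged MPP1. All aged values but that of aged HSC replicate 2 lay above all young values, and the difference was 0.61 ± 0.15 (log2, SE, limma adjusted p = 0.105). Members near Mycn, a proto-oncogene of the Myc family, and near Gas2 gave 0.52 and 0.50 (log2, limma adjusted p = 0.229 and 0.245). The member nearest to Gm10309, in an intron of Prkce, and the Eva1a member gave 0.48 and 0.44 (log2, limma adjusted p = 0.346 and 0.27).

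The rule does not use position, but a promoter open in every fraction cannot be a member, so the share at promoters is partly set by the rule. At promoters lay 66 members (3.59%), with a promoter taken as reaching from 1000 bp before a TSS to 100 bp after it, against 26.7% of shared regions and 12.1% of all regions. Introns held 831 members (45.1%), exons 65 (3.53%) and intergenic sequence 879 (47.7%). The median distance to the nearest TSS was 47688 bp for members, 9849 bp for shared regions and 22017 bp for shared regions outside promoters. The same rule gave promoter shares of 2.67% (4 of 150) for MPP2, MPP3 and MPP4 and of 2.95% for GMP, MEP and CLP, similar to that of the members. These regions lay nearer to genes, with median distances of 30581 and 23124 bp. Accordingly, 48.8% of members lay over 50000 bp from any TSS, against 30.1% of shared regions outside promoters, 36.7% of the regions of MPP2, MPP3 and MPP4 and 29.3% of those of GMP, MEP and CLP. No test was made of these shares, since neighboring regions are not independent.

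**Figure D4:**
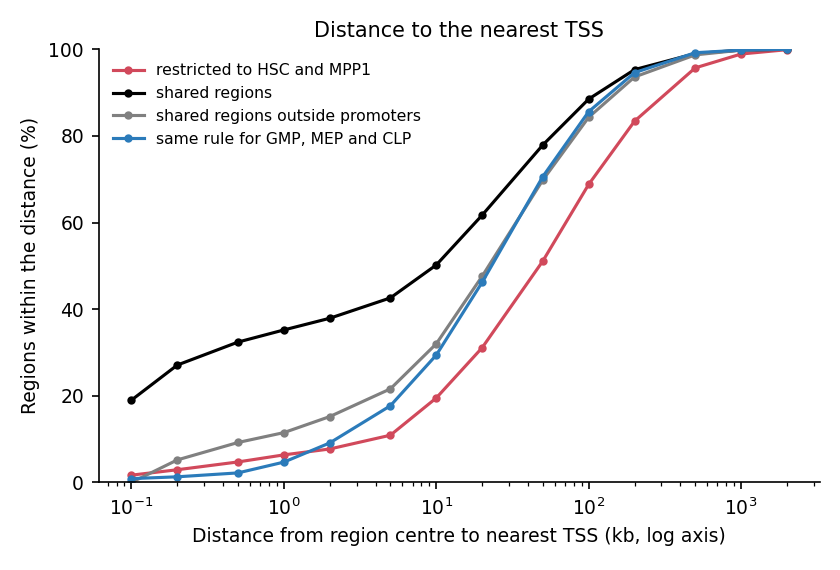
Cumulative share of regions (%, y axis) within a given distance of the nearest TSS (kb, log x axis) for members, shared regions, shared regions outside promoters and regions of the same rule for GMP, MEP and CLP. Within 50 kb lay 51.1% of members, 77.9% of shared regions, 69.8% of shared regions outside promoters and 70.6% of regions of GMP, MEP and CLP.

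The members were narrower than shared regions (median 404 bp against 558 bp) and wider than all regions of the catalogue (336 bp). A region spans all its merged peaks, so its width can grow with the number of calls and is partly set by the rule. Members called in 4 libraries had a median of 361 bp and those called in 10 or more had 485 bp. The members were also poorer in G and C than shared regions (46.8% against 54.2%, and 51.2% outside promoters), with 3.25 CpG dinucleotides per 201 bp on average against 5.92 in shared regions outside promoters. The regions of GMP, MEP and CLP were alike in base composition (47.3% G and C) and narrower still (276 bp). The 137 members called more often in aged cells lay farther from genes than the other members, with a median distance of 79822 bp against 45913 bp. Members were found on all autosomes and X, with 144 (7.82%) on chromosome 3 against 5.81% of the shared regions, and 55 (2.99%) on chromosome 11 against 5.54%.

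Members were scattered. Members were named by the closest TSS, which says nothing of the gene they regulate, and 1491 genes had at least 1 member, 1234 of them exactly 1 and 189 exactly 2. The median distance from a member to the nearest other member was 306857 bp, and 244 members (13.3%) had another within 50000 bp. There were 10 runs of 3 members with gaps under that distance and none longer. The shortest runs lay in Nav2 (chr7:49132948-49146807), at Rhbdl2 (chr4:123787504-123803970), where all 3 regions called in 4 or more of the 12 libraries were members, and at Pik3c2g (chr6:139576549-139597989).

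The genes with most members were Cblb (a ubiquitin ligase), Dsc3 (a desmosomal cadherin), Foxp1 (a forkhead transcription factor), Gcfc2, Marcks (a substrate of protein kinase C), Nav2 and Rora with 5 each, followed by 11 genes with 4 each, of which Auts2, Cdh11 (a cadherin) and Cntnap2 (a neural adhesion molecule) come first by name. As a share of the regions near the gene that were called in 4 or more of the 12 libraries, these were 100% for Cdh11 (4 of 4), 83.3% for Dsc3 (5 of 6), 62.5% for Gcfc2 (5 of 8) and 41.7% for Rora (5 of 12), against 4.98% over all genes. The lowest shares of these 10 named genes were those of Nav2 (21.7%, 5 of 23) and Auts2 (28.6%, 4 of 14). These genes were picked for their number of members, so shares above that over all genes are partly set by the choice. Long genes and genes next to wide stretches without genes collect more regions, and the part of this in the counts was not tested.

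Lists of genes known for a cell type or a process were then read for members. Of 50 genes known for HSC identity, 17 had at least 1 member, and 27 of the 269 regions near these genes that were called in 4 or more of the 12 libraries (10%) were members, beside 4.98% over all genes. Of the 27, 5 lay nearest to Rora and 3 to Gata3. The other lists, given below, ranged from 3.85% to 11.8%, and no test was made of these shares. Genes of this list without a member included Procr, Fgd5, Hoxb5, Ctnnal1, Slamf1, Meis1, Gata2, Erg and Hoxa9. Open regions near those genes were therefore shared with another fraction or called in fewer than 4 of the 12 libraries. At Meis1 and Erg, 14 and 5 regions were called in 4 or more of the 12 libraries.

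HSC identity members with many calls lay nearest to Itga6 (2 members), Fhl1, Gata3 (2 members), Eya1 and Hlf. The pair near Itga6, a laminin receptor of the integrin family, was called in 10 libraries each and lies 113539 and 116440 bp from the TSS (chr2:71673192-71673610 and chr2:71670304-71670697). The first had fold enrichments of 9.3, 9.72, 5.25 and 9.31 in young HSCs, 8.21, 8.33, 7 and 7.87 in aged HSCs, 6.41 in young MPP1 replicate 1 and 6.17 in aged MPP1 replicate 2. Its calls were complete in HSCs and partial in MPP1 at both ages, without a difference in calls that passed the test (p = 0.111 for fraction, exact test).

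The member in an intron of Hlf, a bZIP transcription factor found in HSCs (chr11:90382023-90382421, 8673 bp from the TSS), had 8.36, 7.69, 6.92 and 6.85 in young HSCs and 6.54, 9.1 and 6.3 in aged HSC replicates 1, 2 and 4. In MPP1 it was called in replicate 1 of each age, at 4.18 in young and 5.14 in aged cells, below all HSC values. Near Gata3, a zinc finger factor of T cells that HSCs also express, the member at chr2:9361947-9362358 was called in all 4 young HSC and both young MPP1 libraries and in 3 aged HSC libraries. A second member there (chr2:9520053-9520572) was called in all 6 aged libraries and in 3 young HSC libraries. The 2 members near Gata3 thus had opposite patterns, with p = 0.167 for age in each (exact test).

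The member near Fhl1 (a LIM domain protein, chrX:56769824-56770238) was called in all 6 aged and in 3 young libraries. The Eya1 member (chr1:14193476-14193904, in an intron) was called in 5 young and 4 aged libraries. Near Cdkn1c, the inhibitor of cyclin-dependent kinases that holds HSCs in quiescence, both members lie in introns of the neighboring Kcnq1. One (chr7:143415149-143415386) was called in 3 young HSC libraries, in young MPP1 replicate 1 and in no aged library (p = 0.0714, exact test), and the other (chr7:143389303-143389646) in 5 young and 3 aged libraries. A member at the promoter of Vwf, the von Willebrand factor of platelets and endothelium, 12 bp from its TSS (chr6:125552724-125553149), had 5.71 and 9.06 in young HSC replicates 1 and 2 and 6.11 and 6.95 in aged HSC replicates 2 and 3. The Vwf member was called in no MPP1 library. Other members of the list lay near Etv6 (2), Mecom (2), Prdm16, Fli1, Alcam, Trpc6, Runx1, Nkx2-3, Rora (5) and Gata3 (another member, called in 6 libraries).

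The other lists are set beside the same 4.98% over all genes. Of 20 genes of quiescence and immediate early response, 5 had members, which were 7 of 138 regions (5.07%) and lay near Jun, Klf6 (2), Cdkn1c (2), Foxo3 and Tgfbr1. Of 12 genes of the cell cycle and proliferation, 3 had members, 6 of 64 regions (9.38%). These were Cdk6 (in an intron, chr5:3433140-3433813, called in 11 libraries), Myc (2) and Mycn (3, of which chr12:12904329-12905019 was called in all 12). Markers of the lineages had 1 of 26 regions for myeloid genes (Irf8, 3.85%), 2 of 33 for lymphoid genes (Satb1 and Notch1, 6.06%), 2 of 17 for erythroid genes (11.8%, both near Car2, a carbonic anhydrase, called in 11 and 8 libraries) and 1 of 25 for megakaryocyte genes (Vwf, 4%). Endothelial genes had 2 of 47 (Kdr and Mmrn1, 4.26%) and genes of mast cells and basophils 1 of 11 (Kit, 9.09%). With counts of 1 or 2, these lists cannot be set apart from the share over all genes.

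Finally, the sequence within 100 bp of the summit was searched on both strands for 33 consensus motifs. Against shared regions outside promoters, 19 motifs were more frequent in members and 14 less frequent, 7 of them by 1.5 times or more and 9 to at most 1 over 1.5. HOXA9 was found in 2.55% of members and 1.25% of shared regions outside promoters, FOX in 4.29% and 2.67%, TEAD in 3.97% and 2.18%, NFAT in 6.68% and 4.15%, PBX-HOX in 0.978% and 0.507% and NR4A in 1.52% and 0.768%. Over all regions of the catalogue the shares were 0.883% for HOXA9, 2.48% for FOX, 2.33% for TEAD, 4% for NFAT, 0.477% for PBX-HOX and 0.841% for NR4A. By the ratio of the share in members to that in shared regions outside promoters, HOXA9 stood first (2.05), followed by NR4A (1.98), PBX-HOX (1.93), TEAD (1.82), and FOX and NFAT (1.61 each), with few regions behind PBX-HOX (18) and NR4A (28). Within 50 bp of the summit PBX-HOX stood first (2.22), with HOXA9 and TEAD at 2.12 each.

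CNC motifs were found in 6.25% of members (115), 4.05% of shared regions outside promoters, 1.48% of regions of GMP, MEP and CLP and 2.61% of all regions. The 150 regions of the same rule for MPP2, MPP3 and MPP4 had CNC at a share like that of the members, 6.67% (10), and higher shares of AP-1 (38%), GATA (9.33%) and PBX-HOX (2%, 3 regions). STAT was found in 8.67% of them, and HOXA9 and FOX in 0.667% each (1 region). Every CNC match contains an AP-1 match. AP-1 matches in sequences without a CNC match were found in 10.3% of members and in 11% of shared regions outside promoters. The surplus of AP-1 over the latter (16.6% against 15.1%) thus lay in sequences with a CNC match. Without CNC, AP-1 was found in 8.77% of all regions and in 7.35% of regions of GMP, MEP and CLP, both below the members. NFI was found in 7.34% of members and 5.38% of shared regions outside promoters (4.47% of all regions), STAT in 8.1% and 5.84% (5.68%) and GATA in 5.71% and 5.2% (3.86%).

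**Figure D5:**
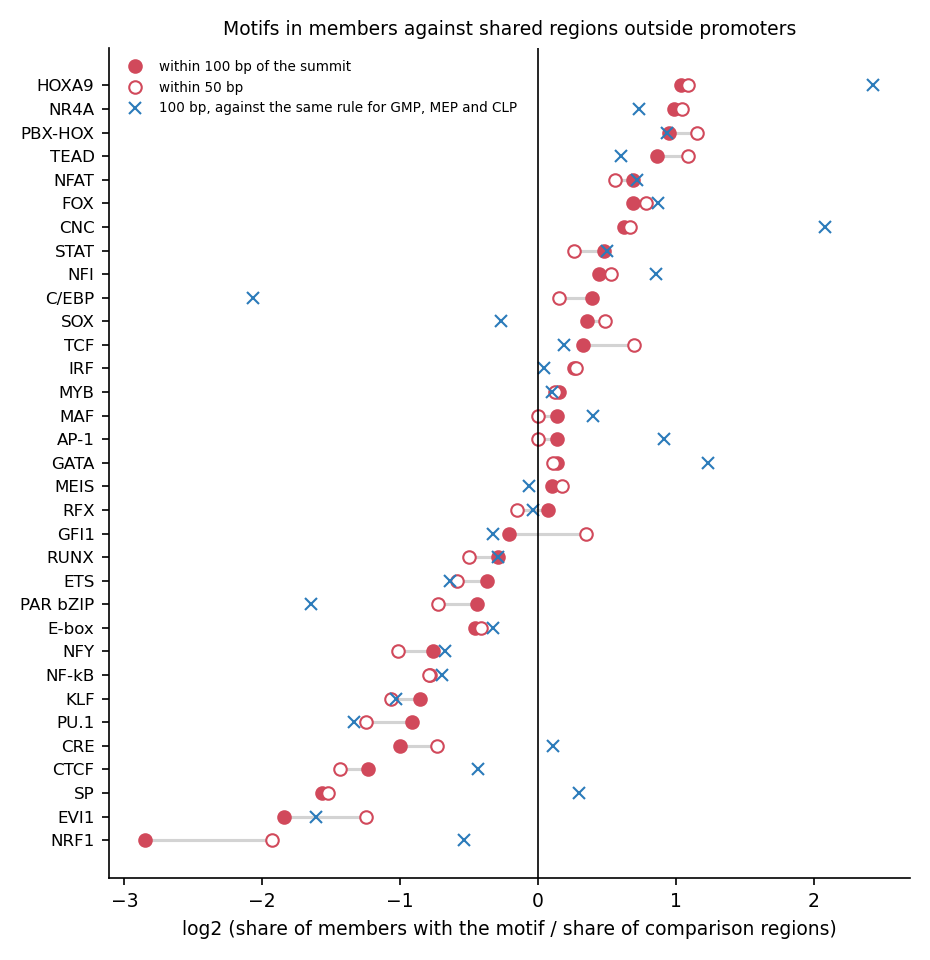
Log2 ratio (x axis) of the share of members with each of 33 motifs (y axis) to that of shared regions outside promoters, within 100 bp (filled circles) and 50 bp (open circles) of the summit, and to that of regions of the same rule for GMP, MEP and CLP (crosses). HOXA9 lies farthest to the right for filled circles and NRF1, which only 1 member held, farthest to the left.

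Less frequent in members were PU.1 (GAGGAAGT, which contains an ETS match), in 4.46% against 8.41% of shared regions outside promoters and 8.43% of all regions, ETS in 16.3% against 21.1% (20%) and RUNX in 10.8% against 13.2% (11.3%). The same held for SP (GGGGCGG) in 2.83% against 8.35% (8.21%), KLF (GGGTGTG) in 3.04% against 5.51% (5.94%) and CTCF (AGGGGGC) in 2.39% against 5.62% (5.55%). The members were also poorer in G and C than the shared regions outside promoters, and the part of base composition in these shares was not tested. Regions of GMP, MEP and CLP had almost the same content of G and C as members, and the members were set against these too. HOXA9 again had the highest ratio (5.39, found in 0.474% of these regions), and FOX, TEAD, NFAT, PBX-HOX and NR4A had ratios of 1.83, 1.52, 1.64, 1.91 and 1.66. Of the 33 motifs, 6 had the opposite direction to that against shared regions outside promoters. SP and CRE (TGACGTCA) were more frequent in members than in these regions (ratios 1.23 and 1.08). C/EBP, SOX (ACAATGG), MEIS (TGACAG) and RFX (GTTGCCA) were less frequent, with shares of 2.61%, 2.39%, 16.5% and 3.48% in members and 10.9%, 2.88%, 17.3% and 3.57% in these regions. C/EBP (ATTGCNNAA), found in 1.99% of shared regions outside promoters, had the lowest ratio of the 33 motifs against these regions (0.239). GATA was found in 2.42% of the regions of GMP, MEP and CLP and PU.1 in 11.2%. A region could pass this rule through the 4 libraries of 1 of these fractions. MEP libraries held 9581 to 11041 peaks and GMP libraries 52576 to 63288, so these shares need not hold for each fraction. The part of each fraction in this set was not counted.

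Motif shares also varied among the members. FOX was found in 2.77% of members called in 4 libraries, 4.28% of those called in 5 to 9 and 9.76% of those called in 10 or more (16 of 164), whereas shared regions outside promoters had 2.48%, 2.56% and 2.77%. HOXA9 gave 1.91%, 2.46% and 5.49% (9 of 164) in members and 0.842%, 1.25% and 1.3% in shared regions outside promoters. CNC gave 5.89%, 5.82% and 10.4% (17 of 164) in members and 3.27%, 4.03% and 4.18% in the latter. Shares of HOXA9 and CNC were thus higher in regions with 10 or more calls than in those with 4 in both kinds of region, on small counts in members. Other motifs in members went the other way, with 6.59%, 5.37% and 4.88% for GATA and 17.5%, 15.9% and 14.6% for ETS. NR4A gave 1.73%, 1.55% and 0.61%. No tally of the 33 motifs by number of calls was made. Among the 137 members called more often in aged cells, CNC was found in 12.4% (17) against 5.75% of the other members, GATA in 10.2% (14) against 5.34%, IRF (GAAANNGAA) in 16.1% (22) against 9.57% and RUNX in 15.3% (21) against 10.5%, while HOXA9 was found in 1.46% against 2.64%. In shared regions outside promoters that were called more often in aged cells (144), the shares were 6.94% for CNC, 2.78% for GATA, 12.5% for IRF and 23.6% for RUNX, against 4.04%, 5.22%, 8.35% and 13.2% of the other shared regions outside promoters. Of the 33 motifs, 15 had a higher share in the regions called more often in aged cells among members, 19 among shared regions and 10, CNC, IRF and RUNX among them, in both, so nothing is read from the overlap. The GATA share was higher in members and lower in shared regions. No test was made of these differences.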

How the data were processed

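Single-read ATAC-seq had been performed by the authors on 36 libraries. Per the methods of the study, reads were aligned to mm10 with Bowtie2, subsampled with SAMtools to equal numbers of mapped reads, and peaks were called in each library with MACS2 2.2.6. Each entry of the deposited lists carries a fold enrichment, which is a ratio of the signal to the local background, and the -log10 p-value and -log10 q-value of the authors' peak caller, with a smallest -log10 q-value of 3. They hold no read counts, so depth per library is unknown here and the count model of the authors could not be run. Accessibility was read as presence of a call and, in regions called in all 12 libraries, as the highest fold enrichment of a library.

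From the deposited entries (1358077, of which 1204561 were distinct peaks), regions were merged and annotated with protein-coding transcripts of GENCODE mouse release 21, counted from 1 on mm10, and named by the gene of the closest TSS. Motifs were searched in 201 bp around the median summit, which could be read for all but 190 of the regions of the catalogue. Groups came from the sample labels. Calls were compared by a two-sided exact conditional test per region, with fraction or age as stratum, and log2 fold enrichment by limma 3.58.1 (R 4.3.3) with an intensity trend, both adjusted after Benjamini and Hochberg over all regions tested, at a threshold of 0.05. The regions tested were the 36960 called in 4 or more of the 12 libraries, and 16711 for limma. Other steps used Python 3.11.15, numpy 2.4.6, pandas 2.3.3 and scipy 1.17.1. The tests were tested on simulated data.

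Named were the 10 members with most calls, the 5 with the smallest p per direction of age and of fraction (ties by difference in calls, then by percentile), the members nearest to genes of HSC identity and of the other lists, and the 10 genes with most members. Some genes of the lists that meet this rule are not reported here. Further members near named genes and the order of the lists were chosen after their values were seen. The members, lists and motifs were chosen with earlier results of these data known. Alternatives were a stricter q-value, 50% cover, equal peak numbers, other call limits, other strata, other scalings and leaving out each library, with leaving out young HSC replicates 3 and 4, reading the share of members by sets of HSC replicates and the replicate block of the exact test of calls between HSCs and MPP1 chosen after seeing the data.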

Additional observations from a re-analysis of the deposited data

Results flagged for a closer look

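In groups of 4 libraries, the highest or lowest library was compared with its nearest neighbor by Dixon's ratio at its 95% critical value. Over 30 such groups 1 library stood apart, and chance alone gives about 1 in 20. It was young HSC replicate 2 at the member nearest to Gm15155, with a fold enrichment of 11.2 against 8.83, 8.95 and 8.52 in the other young HSC libraries. The member's age difference did not pass its test.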

How the results depend on the processing

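The number of members was 1841, and it was 2825 with a limit of 3 of the 12 libraries, 867 with a limit of 6, 2988 with at most 1 call in the 24 other libraries, and 1522 (without aged HSC replicate 3) to 2048 (without young MPP2 replicate 2) when any of the 36 libraries was left out. With equal peak numbers in the 12 libraries, 956 regions were members. Of these, 95 (9.94%, beside 0.894% of all regions) were called more often in aged cells and 6 (0.628%, beside 0.431%) less often. The count called more often in aged cells (137) was 76 with a -log10 q-value of at least 10 (6.05% of members, beside 0.695% of all regions), 89 with HSC replicates 1 and 2, HSC replicates 3 and 4 and MPP1 as strata (4.83%, beside 0.622%), 62 without young HSC replicates 3 and 4, and 110 (without aged HSC replicate 3, 7.23% beside 0.853%) to 179 (without young HSC replicate 2, 11.5% beside 1.36%) when 1 library was left out. The count called less often (9) was 20 without these 2 libraries and 8 (without young HSC replicate 1, 0.493% beside 0.552%, or replicate 2, 0.516% beside 0.482%) to 20 (without young HSC replicate 3, 1.13% beside 1.01%) when 1 was left out, above 1.5 times the count without young HSC replicate 3 or 4, young MPP1 replicate 1 or 2, aged HSC replicate 1 or aged MPP1 replicate 1. The HSC difference in the share of members called, 17.9 points, was -0.272 with replicates 1 and 2 only. The cause of these shifts was not tested.

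The count called more often in HSCs than in MPP1 (50) was 27 with the stricter q-value (2.15% of members, beside 0.297% of all regions) and 28 (without aged MPP1 replicate 2, 1.66% beside 0.165%) to 79 (without young HSC replicate 4, 4.49% beside 0.387%) when 1 library was left out. With equal peak numbers in the 12 libraries it was 65 of 956 members (6.8%, beside 0.659%). The count called less often (5) was 1 with the stricter q-value (0.0796%, beside 1.15%), 2 with equal peak numbers (0.209%, beside 0.756%), and 4 to 12 when 1 library was left out, with 11, 12 and 10 without young MPP1 replicate 1, young MPP1 replicate 2 and aged MPP1 replicate 2 (0.623%, 0.705% and 0.592%, beside 1.77%, 1.49% and 1.32%). In the limma fit, 2 members were higher in HSCs, beside 8 of all 16711 regions. The count became 0 without centring, with the mean fold enrichment of a region, with replicates 1 and 2 only and with the replicate block. Over all regions the counts in these settings were 0, 0, 1 and 6. When 1 library was left out, the count of members was 0 to 2. It was 0 without young HSC replicate 1, young MPP1 replicate 2, aged MPP1 replicate 1 or aged MPP1 replicate 2, beside 0, 9, 1 and 0 of all regions. It was 1 without young HSC replicate 2, young MPP1 replicate 1 or aged HSC replicate 3, beside 4, 2 and 3. The count of members higher in aged cells, 1 beside 16 of all regions, was 1 to 2, with 2 without aged HSC replicate 2, beside 15. Cntnap5a passed under all settings that were run. The promoter share of 3.59% was 7.71% with 2000 bp to either side of a TSS, and 31 of 33 motifs kept their direction against shared regions outside promoters with a window of 50 bp.

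Replicates share numbers between groups, but deviations of same-numbered libraries correlated at only -0.08 to 0.18, so the numbers were not taken as pairs. With the replicate block, 22 members (1.2%, beside 0.157% of all regions) were called more often in aged cells and 1 (0.0543%, beside 0.0216%) less often (exact test). The limma count of members higher in aged cells was 1 again, beside 26 of all regions of the fit. The exact tests could not reach p under 0.05 with replicates 1 and 2 only (smallest p 0.0556 for age and for fraction), in MPP1 or HSC replicates 3 and 4 alone (0.333) or, for fraction, with the replicate block (0.125).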
